A study of Mus musculus with 2 samples.

Results

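The expression of 10 genes that encode enzymes removing superoxide and peroxides, Sod1, Sod2, Sod3, Gpx1, Gpx3, Gpx4, Prdx3, Prdx5, Txn2 and Txnrd2, was compared between hearts lacking Med1 in cardiomyocytes and control hearts. The genes were chosen by symbol for the function of their products. All 10 were found among the 22882 gene symbols of the deposited data, each on 1 row, and all 10 passed the filter on low values that left 10489 genes. Med1 is a subunit of Mediator, the complex that links transcription factors to RNA polymerase II. The control was the heart of Med1fl/fl mice, in which Med1 is flanked by loxP sites. The csMed1-/- mice carried the same floxed alleles and the α-MyHC-Cre transgene, whose α-myosin heavy chain promoter drives Cre recombinase in cardiomyocytes, so that fibroblasts, endothelial cells and blood cells of these hearts keep Med1. Both groups were 23 days old, of mixed sex, untreated and on the C57BL6/J background. Heart RNA of 5 mice was pooled per genotype and sequenced as 1 polyadenylated RNA library per pool, so no gene has a replicate and no test between the genotypes was possible. A Cre control without floxed Med1 was not analysed here, and the presence of Cre and the loss of Med1 cannot be told apart. The authors reported enlarged hearts with a decreased ejection fraction in csMed1-/- mice of this age or a few days older. Differences that come with the failing heart and those of Med1 loss itself cannot be told apart here either.

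The respiratory chain of the heart leaks electrons to oxygen and so makes superoxide. Superoxide dismutases turn superoxide into hydrogen peroxide: SOD1 in the cytosol with copper and zinc, SOD2 in the mitochondrial matrix with manganese, and SOD3 on the outside of cells. Hydrogen peroxide is then reduced to water by glutathione peroxidases, by peroxiredoxins and, in peroxisomes, by catalase. In mitochondria the peroxiredoxin PRDX3 is recharged by thioredoxin 2 (Txn2), which is recharged by thioredoxin reductase 2 (Txnrd2) at the expense of NADPH.

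Of the 10 products, 4 are selenoproteins. Gpx1, Gpx3, Gpx4 and Txnrd2 carry a TGA codon inside the reading frame, normally a stop, which is read as selenocysteine, the residue at the active site. The coding sequence around that codon is shown because it is a feature shared by the 3 genes with the highest csMed1-/- levels and by the gene with the lowest. The sequences run 5′ to 3′ and are from the GENCODE M21 transcripts of GRCm38 (plus strand), with the selenocysteine codon in capitals.
Gpx1: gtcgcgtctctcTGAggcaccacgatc
Gpx3: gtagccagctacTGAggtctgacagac
Gpx4: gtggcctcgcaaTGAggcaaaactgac
Txnrd2: gtgactggttgcTGAggctaa
In all 4 the codon is followed by gg. In Gpx1 (chromosome 9, codon at 108339451 to 108339453) it is codon 47 of 201, in Gpx3 (chromosome 11, 54907256 to 54907258) codon 73 of 226 and in Gpx4 (chromosome 10, 80054737 to 80054739) codon 73 of 197. In Txnrd2 (chromosome 16, 18477772 to 18477774) it is codon 526 of 527, so that 1 codon separates it from the taa stop at the end of the sequence shown. The other 6 genes have no annotated selenocysteine.

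The values are FPKM, fragments scaled to transcript length and to the fragments mapped, as the authors computed them. A change is the plain ratio of csMed1-/- to Med1fl/fl FPKM, and a gene is called past 2-fold when that ratio is above 2 or its inverse is. The filter kept 10489 genes that were detected in each library and reached 1 FPKM in at least 1 of them, and their median log2 ratio was -0.07. Of these genes 18.0% were lower and 13.6% higher in csMed1-/- heart by more than 2-fold, 31.5% in all, and 53.2% were lower by any amount. Med1 itself had 3.38 FPKM in the Med1fl/fl and 0.412 FPKM in the csMed1-/- library, over all its exons, deleted or not. Of the 7 cardiomyocyte markers with a row, 4 were lower past 2-fold, and 1 (Actn2) was higher within 2-fold, with 1286 and 1892 FPKM. The 7 summed to 51748 FPKM in Med1fl/fl and 21411 FPKM in csMed1-/- heart. Myl2 (20467 and 6571 FPKM) and Tnni3 (10283 and 1537 FPKM) weighed most in the difference between these sums. Of the 8 fibroblast markers 4 were higher past 2-fold and 1 was lower, with sums of 503 and 1193 FPKM. The 7 endothelial markers summed to 481 and 440 FPKM, with 2 (Kdr and Tek) lower and 1 (Vwf) higher past 2-fold. The 8 macrophage markers summed to 257 and 255 FPKM, with 1 (Cd14) higher past 2-fold, and 4 neutrophil markers summed to 3.27 and 9.70 FPKM. In such bulk RNA, fewer cells of a type and less RNA per cell cannot be told apart, and the part of cell makeup in the ratios below was not tested.

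The 10 genes differed in opposite directions. Gpx3, Gpx1 and Sod3 were higher and Sod2 and Prdx3 lower in csMed1-/- heart by more than 2-fold, and the other 5 stayed within 2-fold. The 3 higher genes are 30% of the 10, against 13.6% of all genes, and the 2 lower genes are 20%, which is near the 18.0% of all genes. Many of the genes are abundant, and among the 1223 genes at 100 FPKM or more in either library 19.3% were higher and 18.7% lower past 2-fold. The median log2 ratio of the 10 genes was -0.10, close to that of all genes, with a range from -1.33 to 3.59. The 4 enzymes assigned to mitochondria alone (Sod2, Prdx3, Txn2 and Txnrd2) were all lower, as were 53.2% of all genes, and the 2 secreted enzymes were both higher. Of the 4 enzymes of the cytosol or of several places, Gpx1 and Gpx4 were higher and Sod1 and Prdx5 lower. At least Gpx1, Gpx4 and Prdx5 of these are found in mitochondria too.

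**Figure D1:**
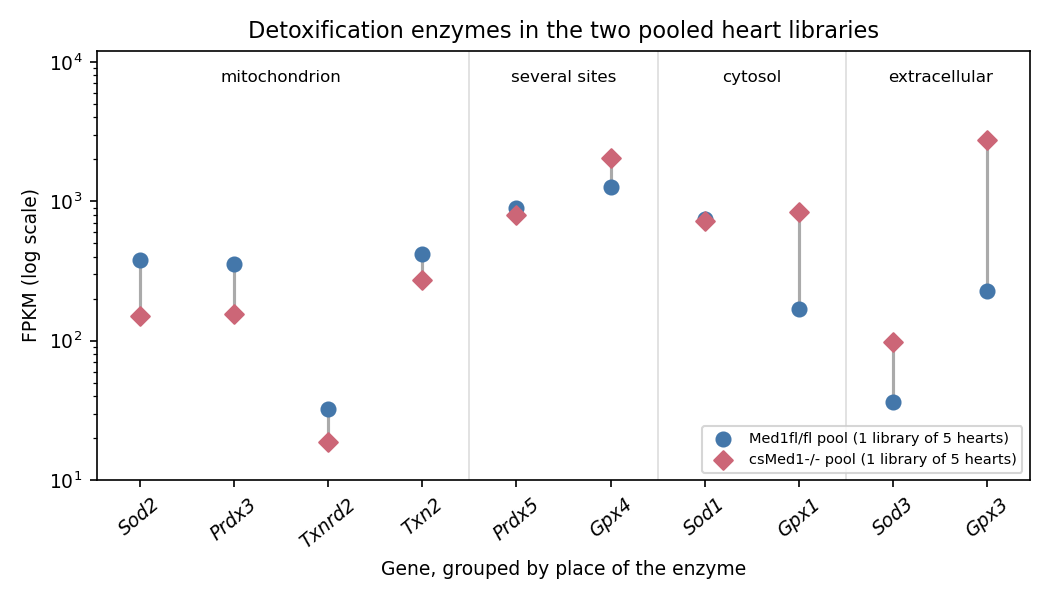
FPKM of the 10 genes (vertical axis, log scale) in the Med1fl/fl pool (circles) and the csMed1-/- pool (diamonds), 1 library of 5 hearts each and no error bars, with genes grouped by where the enzyme works. The csMed1-/- values of Sod2, Prdx3, Txnrd2 and Txn2 lie below the Med1fl/fl values, and Gpx3, at 227 and 2739.95 FPKM, has the widest gap.

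The secreted glutathione peroxidase Gpx3 differed most. This enzyme circulates in plasma and reduces hydrogen peroxide and lipid peroxides outside cells. Gpx3 (chromosome 11, 54902453 to 54910377, plus strand) had 227 FPKM in the Med1fl/fl and 2739.95 FPKM in the csMed1-/- library (ratio 12.1, log2 ratio 3.59). Its ratio stood at place 101 from the top among the 10489 genes. By level it went from place 475 of all gene symbols in Med1fl/fl heart to place 27 in csMed1-/- heart. Adipocytes are a known source of this enzyme, and the adipocyte markers Adipoq, Cfd and Plin1 were listed at 0 in the Med1fl/fl library, with 0.0101, 0 and 0.00825 FPKM in the csMed1-/- library. The fourth, Fabp4, which endothelial cells also express, had 182 and 143 FPKM.

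Gpx1, the cytosolic glutathione peroxidase that is also found in mitochondria, was the second highest by ratio. Gpx1 (chromosome 9, 108338903 to 108340343, plus strand) had 169 FPKM in Med1fl/fl and 835 FPKM in csMed1-/- heart (ratio 4.93, log2 ratio 2.30). Of the 10489 genes 3.15% had a higher ratio. Red blood cells hold much GPX1, and of the erythroid markers, Alas2 had 35.8 and 82.1 FPKM and Slc4a1 0.642 and 3.17 FPKM in the Med1fl/fl and csMed1-/- libraries. Both were higher in csMed1-/- heart, and the globin symbols that were looked for had no row, so no globin level is given. The part of blood cells in the Gpx1 value was not tested.

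Gpx4 reduces peroxidised phospholipids in membranes and is the enzyme that holds back ferroptosis, a form of cell death. Gpx4 (chromosome 10, 80047166 to 80056439, plus strand) had 1264 FPKM in Med1fl/fl heart, the highest level of the 10 genes there, and 2031 FPKM in csMed1-/- heart. The ratio of 1.61 (log2 ratio 0.68) was within 2-fold. The gene makes cytosolic, mitochondrial and nuclear forms from different starts, and RefSeq lists 4 promoter windows for it. A single FPKM per gene does not separate these forms.

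The makeup of the glutathione peroxidase family therefore differed between the libraries. FPKM are scaled to length, so levels of different genes can be set side by side within a library. The 8 family members summed to 1688 FPKM in Med1fl/fl and 5673 FPKM in csMed1-/- heart (ratio 3.36). Gpx4 made up 74.9% of the Med1fl/fl sum and 35.8% of the csMed1-/- sum, while Gpx3 went from 13.5% to 48.3% and Gpx1 from 10.04% to 14.7%. Of the difference between the 2 sums, 63.1% came from Gpx3, 19.2% from Gpx4 and 16.7% from Gpx1. Gpx3 stood at 0.180 of the Gpx4 level in Med1fl/fl heart and at 1.35 times that level in csMed1-/- heart. Gpx7 and Gpx8, relatives in the endoplasmic reticulum, held the small remainder. Gpx7 had 20.8 and 54.8 FPKM (ratio 2.63) and Gpx8 6.51 and 12.3 FPKM (ratio 1.89), and Gpx2, Gpx5 and Gpx6 were listed at 0 in both libraries.

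**Figure D2:**
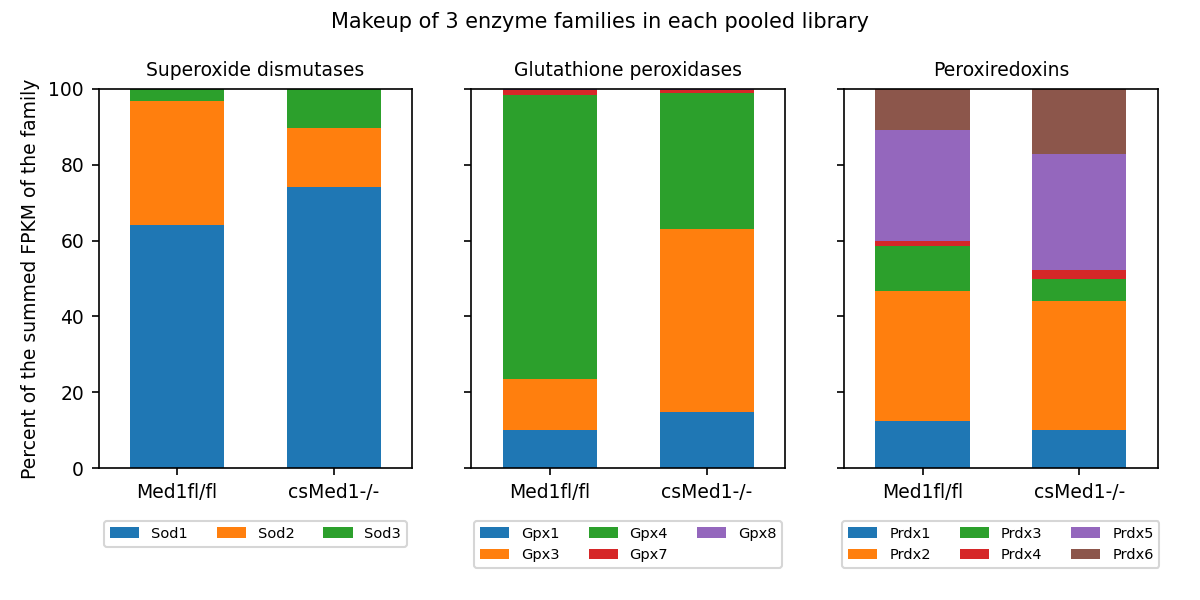
Share of each gene in the summed FPKM of its family (vertical axis, percent) for superoxide dismutases, glutathione peroxidases and peroxiredoxins, with 1 stacked bar per pooled library. In the middle panel Gpx4 holds 74.9% of the Med1fl/fl and 35.8% of the csMed1-/- bar and Gpx3 13.5% and 48.3%, and in the left panel Sod2 holds 32.9% and 15.7%.

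The superoxide dismutases had unlike ratios, with a single gene for each place. The mitochondrial enzyme Sod2 (chromosome 17, 13006846 to 13040063, plus strand) had 380 FPKM in Med1fl/fl and 151 FPKM in csMed1-/- heart (ratio 0.398, log2 ratio -1.33). This was the lowest ratio of the 10 genes, and 11.9% of all genes had a lower one. The cytosolic enzyme Sod1 (chromosome 16, 90220754 to 90226329, plus strand) had 740.3 and 717 FPKM, a ratio of 0.968 (log2 ratio -0.05) that lay nearest to 1 of the 10. Its copper chaperone Ccs, which loads copper into SOD1, had 23.4 and 22.6 FPKM (ratio 0.965). The extracellular enzyme Sod3 (chromosome 5, 52363791 to 52371418, plus strand) had 36.2 and 98.5 FPKM, a ratio of 2.73 (log2 ratio 1.45).

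The 3 dismutase genes summed to 1157 FPKM in Med1fl/fl and 967 FPKM in csMed1-/- heart (ratio 0.836). Within that sum Sod2 went from 32.9% to 15.7%, Sod3 from 3.13% to 10.2% and Sod1 from 64.0% to 74.2%. Relative to Sod1, Sod2 stood at 0.513 in Med1fl/fl and 0.211 in csMed1-/- heart. Sod3 was at 0.0951 of the Sod2 level in the first and at 0.651 of it in the second. Smooth muscle is a known source of SOD3, and the 4 smooth muscle markers summed to 604 FPKM in Med1fl/fl and 1024 FPKM in csMed1-/- heart. Cnn1 alone had 4.32 and 622 FPKM, and without it the other 3 markers summed to 600.1 and 401.5 FPKM, lower in csMed1-/- heart. Of the 4 markers, 2 (Tagln and Cnn1) were higher and 1 (Myh11) was lower past 2-fold, and Acta2 had 573 and 310.0 FPKM. Their part in the Sod3 value was not tested.

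The genes of the mitochondrial peroxiredoxin chain were all lower in csMed1-/- heart, by unequal amounts. Prdx3, the peroxiredoxin of the matrix (chromosome 19, 60864051 to 60874556, minus strand), had 354 FPKM in Med1fl/fl and 155 FPKM in csMed1-/- heart (ratio 0.437, log2 ratio -1.19). Txn2 (chromosome 15, 77915047 to 77929006, minus strand), which hands electrons to PRDX3, had 421 and 274 FPKM (ratio 0.651, log2 ratio -0.62). Txnrd2 (chromosome 16, 18426384 to 18479073, plus strand), the flavoenzyme at the head of the chain, had the lowest levels of the 10 genes with 32.2 and 18.6 FPKM (ratio 0.578, log2 ratio -0.79). Only Prdx3 of the 3 was past 2-fold. The chain as a sum went from 807 to 447 FPKM (ratio 0.554), and with Sod2 added from 1187 to 599 FPKM (ratio 0.504).

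Sod2 and Prdx3 had nearly the same level and nearly the same ratio. Sod2 stood at 1.07 times the Prdx3 level in Med1fl/fl and at 0.978 times that level in csMed1-/- heart. Txn2 went from 1.19 to 1.77 times the Prdx3 level. With 1 library per genotype, whether such shifts exceed the variation between pools could not be estimated.

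Prdx5, an atypical peroxiredoxin found in mitochondria, peroxisomes and cytosol, had a ratio nearer to 1 than Prdx3. Prdx5 (chromosome 19, 6906697 to 6910106, minus strand) had 888 and 798 FPKM in Med1fl/fl and csMed1-/- heart, a ratio of 0.899 (log2 ratio -0.15). Prdx3 stood at 0.399 of the Prdx5 level in Med1fl/fl and at 0.194 in csMed1-/- heart. Over all 6 peroxiredoxins the sum went from 3021 to 2614 FPKM (ratio 0.865), and Prdx3 held 11.7% and 5.92% of it. The cytosolic relatives Prdx1 (372 and 261 FPKM) and Prdx2 (1042 and 890.3 FPKM) were lower in csMed1-/- heart, and Prdx4 of the endoplasmic reticulum (41.1 and 61.4 FPKM) and Prdx6 (323 and 448 FPKM) were higher. Each of these 4 was within 2-fold, so that Prdx3 was the one peroxiredoxin past it.

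**Figure D3:**
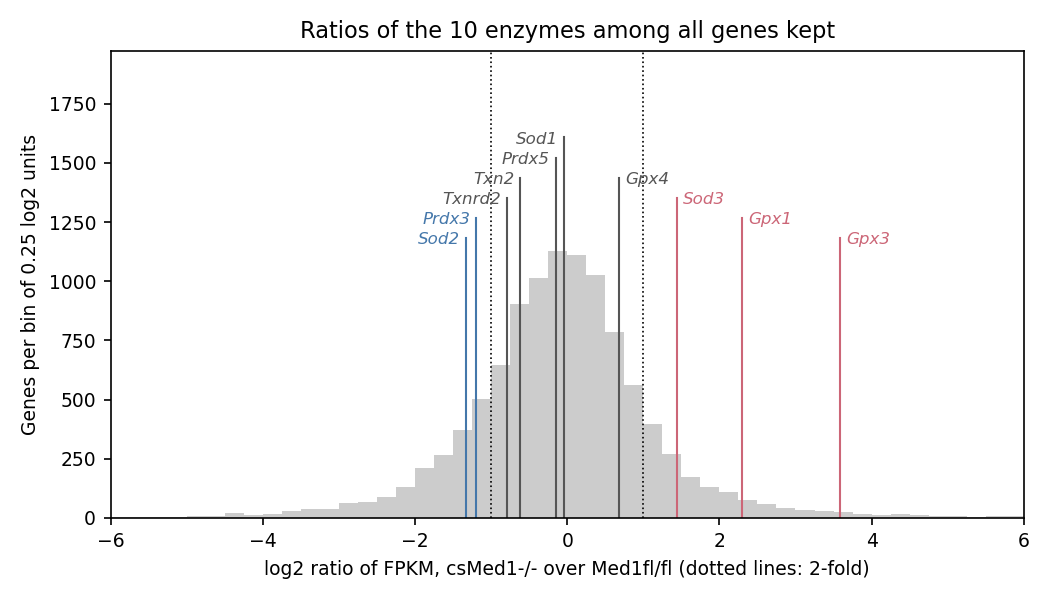
Distribution of the log2 ratio of FPKM, csMed1-/- over Med1fl/fl (horizontal axis), over the 10489 genes kept (grey bars, genes per bin), with a labelled line for each of the 10 genes at its ratio and dotted lines at 2-fold. Line heights carry no value. The horizontal axis is limited to the central range, and Gpx3 at 3.59 lies far in the right tail, while Sod2 at -1.33 and Prdx3 at -1.19 lie on the left flank.

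The order of the 10 levels differed accordingly. In Med1fl/fl heart it ran Gpx4, Prdx5, Sod1, Txn2, Sod2, Prdx3, Gpx3, Gpx1, Sod3 and Txnrd2 from highest to lowest. In csMed1-/- heart it ran Gpx3, Gpx4, Gpx1, Prdx5, Sod1, Txn2, Prdx3, Sod2, Sod3 and Txnrd2. The 3 glutathione peroxidases summed to 1661 and 5606 FPKM in the 2 libraries and the other 7 genes to 2851 and 2213 FPKM. Which neighbours in these orders differ beyond the spread between pools could not be estimated.

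Exons of Prdx5 overlap those of a gene on the opposite strand in the GENCODE M21 annotation. Prdx5 shares 360 bases (28.5% of its reference transcript) with Trmt112, which had 73.1 FPKM in Med1fl/fl and 95.7 FPKM in csMed1-/- heart. The libraries were directional, but whether the counting used strand is not given in the sources used here, so reads in this stretch cannot be assigned with certainty.

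Related enzymes outside the 10 showed both directions. From a list of 24 relatives, thiol reductases and their regulators, 21 were kept, and 4 were lower and 3 higher past 2-fold, with a median log2 ratio of -0.05. The list thus had 19.0% lower against 18.0% of all genes. Cat, the peroxisomal catalase, had 86.0 and 35.1 FPKM (ratio 0.408), a ratio near those of Sod2 and Prdx3. The authors listed Cat as not significant in their RNA sequencing comparison and as lower by quantitative PCR. Gpx1 stood at 1.97 times the Cat level in Med1fl/fl heart and at 23.8 times in csMed1-/- heart. Also lower past 2-fold were the glutaredoxin Glrx (61.7 and 22.7 FPKM), the stress-inducible Sesn1 (27.5 and 11.1 FPKM) and the thioredoxin-glutathione reductase Txnrd3 (10.3 and 4.71 FPKM). Sesn2 (3.43 and 10.1 FPKM) and Sesn3 (0.867 and 2.26 FPKM) were higher past 2-fold, as was Gpx7. The cytosolic counterparts of the mitochondrial chain, Txn1 (47.0 and 65.0 FPKM) and Txnrd1 (11.5 and 8.81 FPKM), stayed within 2-fold. Gsr, which regenerates the glutathione that the glutathione peroxidases use, had 9.25 and 9.21 FPKM (ratio 0.996).

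Enzymes that supply NADPH to these pathways held both lower and higher genes. Of 9 genes kept, 3 were lower and 1 higher past 2-fold (33.3% lower, against 18.0% of all genes). In mitochondria Nnt, the transhydrogenase of the inner membrane, had 387 FPKM in Med1fl/fl and 123 FPKM in csMed1-/- heart (ratio 0.319), and Idh2, the matrix isocitrate dehydrogenase, had 1745 and 764 FPKM (ratio 0.438). C57BL/6J mice are known for a deletion within Nnt, and the gene's FPKM does not show which of its exons were read. The cytosolic Idh1 was lower as well (9.47 and 2.18 FPKM). Pgd of the pentose phosphate pathway had 29.1 and 73.4 FPKM (ratio 2.52), and G6pdx, the first enzyme of that pathway, had 5.29 and 10.1 FPKM (ratio 1.91).

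The other selenoproteins were mixed. Of the 12 kept that are not among the 10 genes, 3 were lower past 2-fold (Sephs2, Txnrd3 and Ept1) and 1 was higher (Sepw1), with a median log2 ratio of -0.26. These are 25% and 8.33% of the 12, against 18.0% and 13.6% of all genes. Sepw1, which encodes selenoprotein W of muscle, had 404 and 1084 FPKM (ratio 2.69). Sephs2, a selenoprotein that itself makes the selenium donor for selenocysteine, had 26.7 and 11.7 FPKM (ratio 0.438). Of 6 genes kept from the selenocysteine machinery, 1 (Pstk) was lower past 2-fold (23.0 and 10.8 FPKM) and none was higher. Pstk phosphorylates the tRNA on which selenocysteine is made. The lower share of 16.7% was near the 18.0% of all genes.

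Genes for the sources of superoxide and hydrogen peroxide were mostly lower in csMed1-/- heart. Complexes I and III of the respiratory chain are the main mitochondrial sites of superoxide formation. Of 37 complex I subunit genes 36 were lower, 12 of them past 2-fold (32.4%, against 18.0% of all genes), with a median log2 ratio of -0.72. All 9 complex III subunit genes were lower, 4 of them past 2-fold (44.4%, against the same 18.0%), with a median of -0.92. Complex I subunits ran from -1.83 (Ndufs1) to 0.18 (Ndufa7). That range is wide, with 6.38% of all genes below it and 38.8% above it. The log2 ratios of Sod2 (-1.33) and Prdx3 (-1.19) lay inside it, below the complex I median. Of 17 genes for NADPH oxidases, monoamine oxidases and other oxidant-producing enzymes, 8 were kept and 6 of these were lower, where 53.2% of all genes were lower by any amount. Maob, the monoamine oxidase of the outer mitochondrial membrane, releases hydrogen peroxide. It was lower past 2-fold (11.1 and 1.001 FPKM, ratio 0.0898), and none of the 8 genes kept was higher past 2-fold. The share lower past 2-fold was 12.5%, against 18.0% of all genes. Nox4 had 0.00475 FPKM in Med1fl/fl and 0.269 FPKM in csMed1-/- heart, and Cybb 0.192 and 0.0705 FPKM, all below the filter.

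Genes of the NRF2 pathway, which induces antioxidant enzymes under oxidative stress, were mixed. Of 14 genes 3 were higher past 2-fold and 1 was lower (21.4% higher, against 13.6% of all genes), with a median log2 ratio of 0.29. Hmox1, the inducible heme oxygenase, had 10.2 and 30.4 FPKM (log2 ratio 1.58), Gss, which completes glutathione synthesis, had 12.04 and 36.1 FPKM (log2 ratio 1.58), and the cystine carrier Slc7a11 had 3.26 and 8.81 FPKM (log2 ratio 1.43). Gsta4, which conjugates glutathione to lipid aldehydes, had 57.3 and 6.001 FPKM (log2 ratio -3.25). Nqo1, a widely used target of NRF2, had 39.7 and 36.0 FPKM (ratio 0.907).

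**Figure D4:**
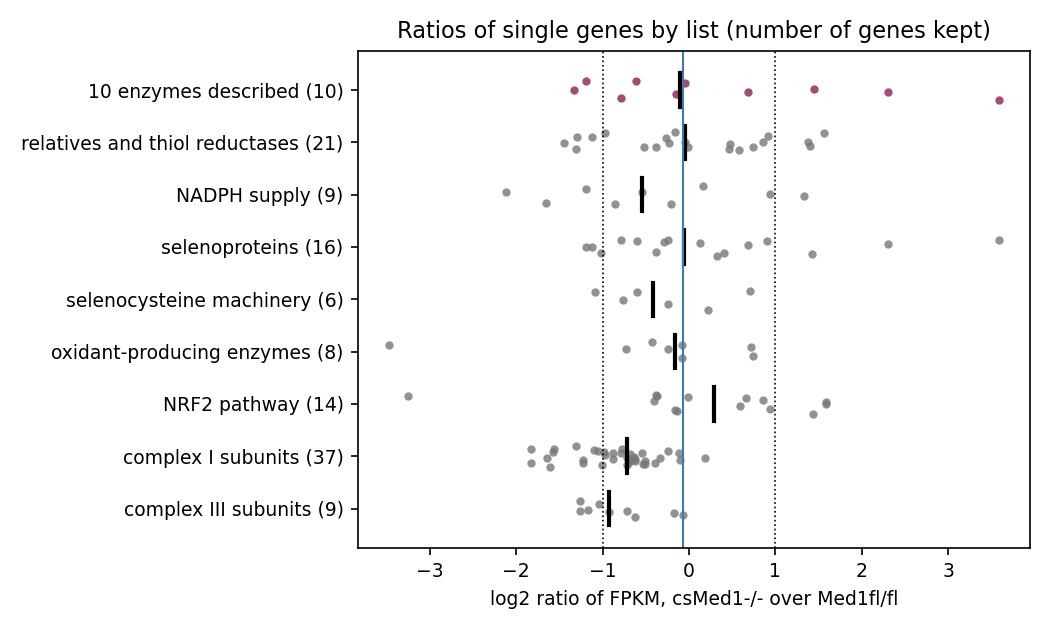
Log2 ratio of FPKM, csMed1-/- over Med1fl/fl (horizontal axis), for each gene kept in the 10 enzymes (top row) and in 8 lists of related genes, with the number of genes in parentheses. Black bars mark list medians, the blue line the median of all genes (-0.07) and dotted lines 2-fold, and points are spread vertically only for legibility. Complex I and III subunits lie mostly left of the blue line, with medians of -0.72 and -0.92, whereas the 10 enzymes reach from -1.33 to 3.59.

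Promoters of the genes were read for 2 motifs because several members differed in the same direction. RefSeq (GRCm38.p6) windows from 250 bases before to 50 bases after the start were held for 9 of the 10 genes, Sod3 being the exception. The core of the antioxidant response element bound by NRF2, TGACNNNGC, was searched on both strands and found in 12.4% of 32851 windows. Among the 12 windows of these 9 genes, 4 of them of Gpx4, it was found in 1, that of Sod1. That stretch lies at chr16:90220698-90220722 on the plus strand, with the match, on the opposite strand, in capitals, and the match begins 56 bases before the RefSeq start at 90220762, which is not the GENCODE start given above.
Sod1: caaggtggGCGTGGTCAgactcagg
The direct repeat 1 element, a pair of nuclear receptor half-sites that PPARα binds, was found as an exact consensus in 13 of the 32851 windows and in none of the 12. These are matches of letters in short windows and describe no binding.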

How the data were processed

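RNA of 5 hearts per genotype was pooled, and 1 directional polyadenylated RNA library per pool was read single-end. The authors used TopHat 2.0.8b for alignment to mm10 (GRCm38), and the deposited FPKM values come from Cufflinks and Cuffdiff 2.1.1 with a UCSC annotation. The submitters' notes also name STAR 2.4.0h, Bowtie2 and DESeq2, with no role given. Cuffdiff's library scaling is not given in the sources used here.

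Rows that share a symbol were summed, genes were kept when detected in each library with a higher value of at least 1 FPKM, and ratios were taken without a pseudocount. Absolute depth is unknown, so no interval was computed. Low values clustered at a ratio of 0.719, taken as that of single reads, which puts csMed1-/- at 1.39 times the control depth if only mapped fragments scaled the values.

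The 10 genes, the lists of related genes and the marker lists were chosen with earlier results of these data known. Named genes were the 10, Med1, listed genes past 2-fold whose higher value reached 10 FPKM, genes at the ends of a range or at 0, and Cat, Ccs, Gsr, Txnrd1, Txn1, the peroxiredoxins and Nnt. All other genes were named after their values were seen. Positions, exons and selenocysteine codons came from GENCODE M21, joined by symbol for all 10 genes. Not every overlapping gene and marker is reported here. The ratio code was tested on simulated data. Python 3.11.15, numpy 2.4.6, pandas 2.3.3 and matplotlib 3.10.9 were used.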

Additional observations from a re-analysis of the deposited data

How the results depend on the processing

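The 10 log2 ratios were recomputed with pseudocounts of 0.1 and 1, with other filters on low values, with ratios centred on their median, with scaling to the 75th percentile or to the sum without the 100 highest genes, and with the highest row of a symbol in place of the sum. In all 90 recomputed values the log2 ratio moved by less than 0.1, and none crossed 2-fold. The filters and the choice of row could not change these ratios, because each gene has 1 row and passes every filter. Each rescaling moved all ratios by a single shared amount. Sod1 changed sign in 2 of the recomputed values, both by rescaling, with a highest value of 0.02. Among other thresholds, 4-fold left 0 of the 10 genes lower and 2 higher, against 5.14% lower and 4.32% higher of all genes. At 1.5-fold 4 were lower and 4 higher, against 29.7% lower and 23.7% higher of all genes. The count of all genes past the threshold was 3309, and became 5686 with no filter on low values, 1706 with 10 FPKM in either library, 992 at 4-fold and 5608 at 1.5-fold. No paired analysis was possible because each genotype has 1 library, and for the same reason no replicate could be left out. How far any of these ratios exceeds the variation between pools cannot be told from these data.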
